A study of Mus musculus with 7 samples.

Results

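To examine the transcription factors that keep hepatocytes hepatocytes, the rows of *Hnf4a*, *Foxa1*, *Foxa2*, *Foxa3*, *Cebpa*, *Cebpb*, *Onecut1*, *Onecut2* and *Prox1* were taken from a table of liver gene counts, 9 genes of 23347. The genes were chosen by name, and all 9 had enough counts to be tested. Livers came from 4 control mice and 3 knockout mice, 1 library per mouse, and all 7 mice had eaten the CDAHFD, a choline-deficient, high-fat diet that causes steatohepatitis, for 15 weeks. The mice were male, on a C57BL/6 background, and 6 to 8 weeks old when the diet began. Controls, labelled WT, were *B4galt1* flox/flox littermates, which carry the floxed gene without Cre. The *B4galt1* hep-/- mice, labelled B4galt1-HKO, carry the same floxed gene and a Cre driven by the albumin promoter. The deletion is thus meant for hepatocytes, and the state of the gene in other liver cells was not tested. No chow-fed group was analysed here, so both groups share the diet.

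These factors work as a network. HNF4A is a nuclear receptor that holds active a large part of the genes of the mature hepatocyte. FOXA1, FOXA2 and FOXA3 are forkhead proteins known as pioneer factors, since they can bind closed chromatin, and C/EBPα and C/EBPβ are leucine zipper proteins that bind the same DNA motif. C/EBPα is known for metabolic genes and for holding back division, and C/EBPβ for the acute-phase response and regeneration. ONECUT1, also called HNF6, and its paralogue ONECUT2 act in hepatocyte and bile duct development, and PROX1 is a homeodomain protein of hepatoblasts, hepatocytes and lymphatic endothelium. The factors bind each other's regulatory regions as well as those of shared targets such as albumin.

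The libraries held 30608271 to 34586588 counts in *B4galt1* hep-/- mice and 37838654 to 39668509 in *B4galt1* flox/flox mice. *B4galt1* itself did not pass between the labelled groups (log2 fold change -0.52, edgeR adjusted p = 0.181). It stood at 48.7, 53.0, 49.2 and 51.7 CPM (counts scaled to the library total, normalized by TMM) in flox/flox replicates 1 to 4, and at 28.4, 23.9 and 53.7 CPM in hep-/- replicates 1 to 3. In CPM the library labelled hep-/- replicate 3 was thus above every control. In FPKM, a level per kilobase of transcript, it was just below them, at 11.9 against 12.2 to 14.04. Replicates 1 and 2 of the hep-/- mice were at 6.47 and 6.52 FPKM. With hep-/- replicate 3 left out *B4galt1* was called lower (-0.96, edgeR adjusted p = 0.0139). Whether the gene was deleted in that mouse is unresolved. It is counted below as labelled, hep-/- replicate 3 means the library so labelled, and values without it stand beside the calls and signs of named genes that it changes. Mitochondrially encoded transcripts took 3.88% to 7.996% of counts in the flox/flox livers and 14.4% to 22.6% in the hep-/- livers. All 10 hepatocyte markers examined were detected, and their summed level overlapped between groups (90100 to 131100 CPM against 102900 to 163000 CPM). Most of that sum is *Alb*, without which it was 30960 to 41830 CPM against 32850 to 50050 CPM. Of the 10, edgeR called none, beside 15.8% of all genes tested. Without hep-/- replicate 3 it called 1, *Cps1*, as lower (-1.44, edgeR adjusted p = 0.0106). DESeq2 called 3 with all mice, *Cps1* lower and *Apoa1* and *Serpina1a* higher, beside 21.5% of all genes. Summed over 10 macrophage markers, every hep-/- liver was lower, with 644 to 755 CPM against 1473 to 3387 CPM. As lower, 6 of these 10 passed the test, beside 7.83% of all genes. Without hep-/- replicate 3 there were 4, beside 7.51% of all genes. In bulk liver, fewer cells of a type and less RNA per cell cannot be told apart.

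Fold changes are hep-/- over flox/flox throughout, and a gene was called where its log2 fold change exceeded 0.58 in either direction with an edgeR adjusted p below 0.05. By this rule 1 of the 9 factors was called, *Cebpb*, which rose (11.1% of the members, where 15.8% of all 15179 genes tested were called, 8.0% higher and 7.83% lower). The median log2 fold change of the 9 was 0.12, beside 0.02 over all genes tested, and -0.10 without hep-/- replicate 3, where *Cebpb* was again the gene called (13.8% of all genes were called there, 6.28% higher and 7.51% lower). Values did not overlap between the groups for 3 factors, *Cebpa*, *Cebpb* and *Onecut2*, or 33.3% of the members against 28.6% of all genes. Neither share of the 9 stands far from that of the whole table. At an unadjusted p under 0.05 there were 4 members, *Foxa2*, *Cebpa*, *Cebpb* and *Onecut2*. DESeq2 called 3 of these, *Foxa2* and *Cebpb* as higher and *Cebpa* as lower, where it called 21.5% of all genes.

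**Figure D1:**
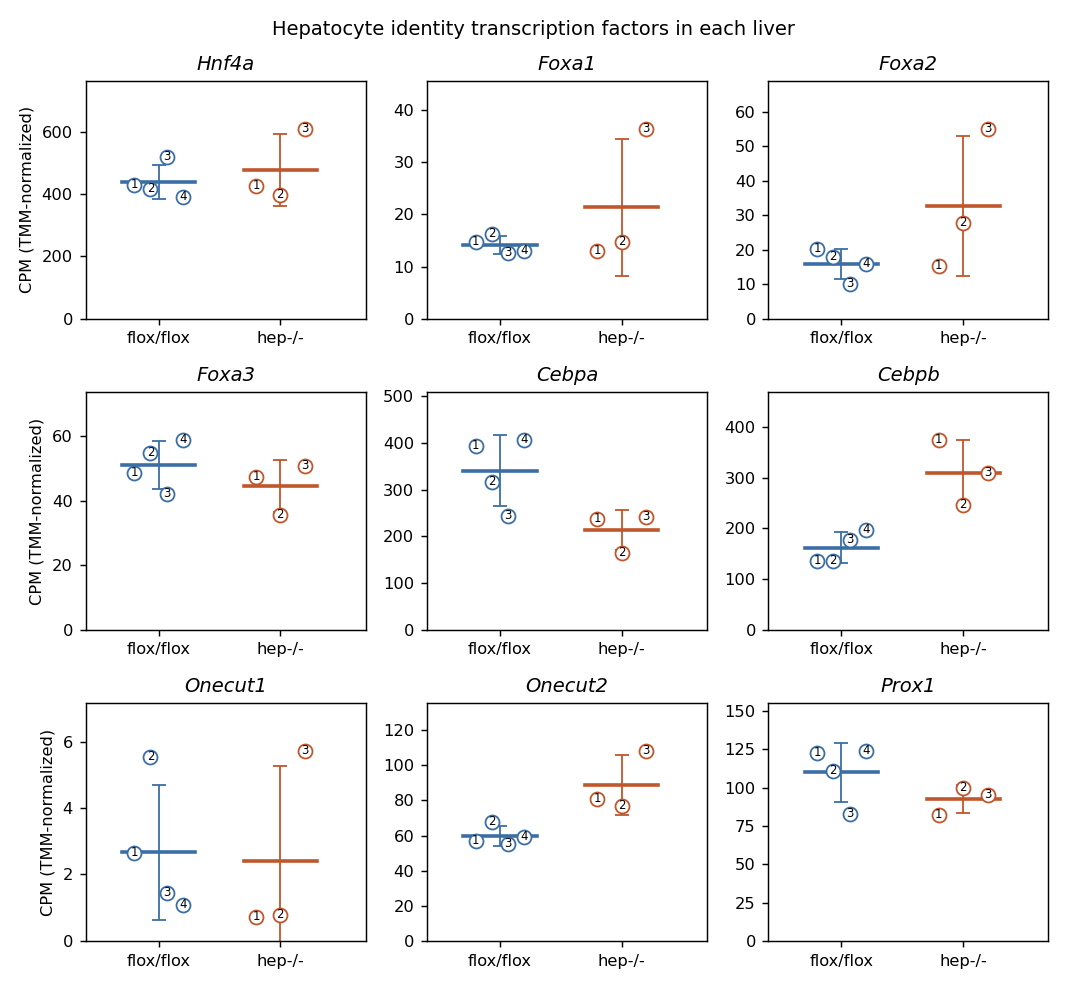
CPM (TMM-normalized, y axis from 0) of each factor in each liver. Circles are mice with their replicate number, thick lines are group means and error bars are SD (n = 4 flox/flox, n = 3 hep-/-), not drawn below 0 for *Onecut1*. The groups do not overlap for *Cebpa*, *Cebpb* and *Onecut2*, and hep-/- replicate 3 is the highest of the 7 livers for *Hnf4a*, *Foxa1*, *Foxa2*, *Onecut1* and *Onecut2*.

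*Cebpb* (NCBI gene 12608) had the clearest difference of the 9. Its level was 136, 136, 178 and 198 CPM in flox/flox replicates 1 to 4 and 375, 246 and 309 CPM in hep-/- replicates 1 to 3. Every hep-/- liver was above every control, and the mean went from 162 CPM (SD 30.8, n = 4) in controls to 310.0 CPM (SD 64.4, n = 3), a 1.91-fold rise. On the log2 scale this was 0.94 with a standard error of 0.22 (edgeR adjusted p = 0.0184), and an exact permutation test of the means, two-sided, gave p = 0.0286, the smallest that 4 mice against 3 allow. Without hep-/- replicate 3 the log2 fold change was 0.93 (edgeR adjusted p = 0.0350). The call was lost without hep-/- replicate 1 (0.77, edgeR adjusted p = 0.0594) and without flox/flox replicate 2 (0.86, edgeR adjusted p = 0.0676), and the adjusted p ranged from 6.49e-04 to 0.0676 over 18 alternatives. *Cebpb* is also expressed in macrophages, whose markers were lower in the same livers.

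*Cebpa* (NCBI gene 12606) lay on the other side. It was measured at 395, 317, 244 and 407 CPM in the flox/flox livers and at 238, 164 and 241 CPM in the hep-/- livers. The 3 hep-/- values were all below the lowest control, although flox/flox replicate 3 came close to hep-/- replicates 1 and 3. The means were 341 CPM (SD 76.0, n = 4) and 214 CPM (SD 43.3, n = 3), and the log2 fold change of -0.67 (standard error 0.24, 95% interval -1.20 to -0.14) did not pass (edgeR adjusted p = 0.0785, exact permutation p = 0.0571). With DESeq2 it passed at -0.66 (adjusted p = 0.0330), and so it did with limma on log2(FPKM + 1) at -0.78 (adjusted p = 0.0159), and the adjusted p ranged from 0.0158 to 0.273 over 18 alternatives. Without hep-/- replicate 3 it was -0.77 (edgeR adjusted p = 0.0857).

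Because the factors share a motif, their proportion was compared within each liver, where library scaling cancels. Per kilobase of transcript (FPKM), *Cebpb* stood to *Cebpa* as 0.600, 0.744, 1.26 and 0.842 in flox/flox replicates 1 to 4, and as 2.74, 2.60 and 2.23 in hep-/- replicates 1 to 3. In 3 of the 4 control livers *Cebpa* was thus the more abundant mRNA, and in all 3 hep-/- livers *Cebpb* was. The mean log2 ratio went from -0.27 (SD 0.452, n = 4) to 1.33 (SD 0.156, n = 3), a difference of 1.598 without overlap (two-sided exact permutation test, p = 0.0286, and p = 0.0857 after adjustment over the 3 within-liver ratios tested). With hep-/- replicate 3 left out the difference was 1.69. In FPKM *Cebpb* alone was already higher in every hep-/- liver (175.7 to 223.3 against 89.9 to 126.3). *Cebpa* alone was already lower in every hep-/- liver (67.45 to 81.5 against 99.9 to 171.1). The lack of overlap in the ratio followed from these values, so its test is no separate support. These mRNA counts do not show which of the shorter and longer proteins is made, since both genes yield several from alternative start codons.

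*Cebpb* and *Cebpa* are both intronless, and their upstream sequences are shown because the differences of this pair had opposite signs. Each run holds the 250 bases before the transcription start in RefSeq for GRCm38.p6, 5′ to 3′ on the plus strand, at chr2:167688665-167688914 for *Cebpb* and chr7:35119043-35119292 for *Cebpa*. Capitals mark the letters TGACG, the core bound by CREB and related factors, or its reverse complement. The C/EBP letters TTNNGCAA were searched on both strands as well and were not found in either run.

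*Cebpb*: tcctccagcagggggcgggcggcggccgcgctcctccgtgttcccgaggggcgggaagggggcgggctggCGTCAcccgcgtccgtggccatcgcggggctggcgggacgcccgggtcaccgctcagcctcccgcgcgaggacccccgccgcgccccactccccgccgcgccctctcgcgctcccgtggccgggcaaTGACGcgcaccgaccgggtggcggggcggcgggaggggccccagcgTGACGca

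*Cebpa*: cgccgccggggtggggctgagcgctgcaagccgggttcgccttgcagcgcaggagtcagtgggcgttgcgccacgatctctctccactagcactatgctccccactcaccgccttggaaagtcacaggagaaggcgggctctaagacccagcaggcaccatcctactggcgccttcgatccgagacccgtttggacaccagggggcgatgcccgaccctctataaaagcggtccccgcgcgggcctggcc

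The *Cebpb* run holds 3 TGACG matches, beginning 180, 53 and 7 bases before the start, and the *Cebpa* run holds none. Among 32851 RefSeq promoter windows of the same length, 17.8% hold TGACG and 9.56% hold TTNNGCAA. Windows were matched for every member except *Onecut2*. In those of the other members, TGACG was found once, for *Onecut1*, TGTTTAC (FOXA, in 3.17% of all windows) once, for *Foxa1*, and ATTGAT (ONECUT, in 6.72% of all windows) once each for *Foxa2* and *Hnf4a*. CAAAGTCCA (HNF4, in 0.384%) and TTCNNNGAA (STAT, in 7.02%) were found in none of these windows. All motifs were searched on both strands. The *Cebpb* run is 81.6% G and C, and that of *Cebpa* 66.4%.

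**Figure D2:**
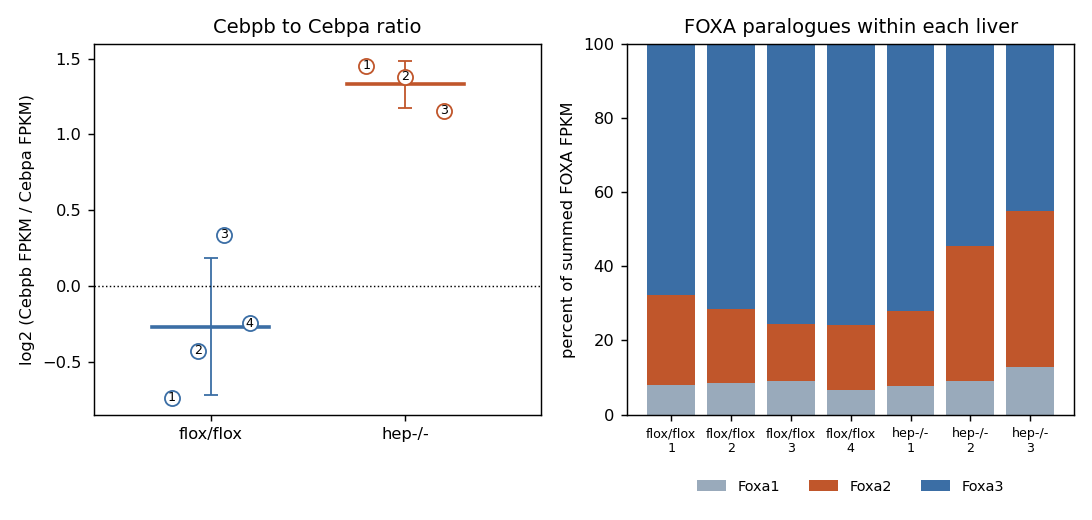
Left, log2 of *Cebpb* FPKM over *Cebpa* FPKM in each liver, with group means (lines), SD (bars) and replicate numbers, where 0 (dotted) means equal levels. All 3 hep-/- livers lie between 1.16 and 1.45, above the flox/flox range of -0.74 to 0.34. Right, the percent of summed FOXA FPKM given by each paralogue in each liver, in which the *Foxa3* part is smallest in hep-/- replicate 3 at 45.1%.

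*Hnf4a* (NCBI gene 15378) was the most counted of the factors and one whose group means lay close together. It read 429.9, 418, 519 and 393 CPM in the flox/flox livers and 426, 398 and 611 CPM in the hep-/- livers. The ranges overlapped, and hep-/- replicate 3 alone lay above the controls. Its log2 fold change was 0.12 (standard error 0.22, edgeR adjusted p = 0.730), with a 95% interval from -0.36 to 0.60 that reaches the call threshold on the upper side. Its sign turned without hep-/- replicate 3 (-0.10) and on FPKM (-0.02). The gene is transcribed from a pair of promoters, and counts summed over the gene do not separate their products.

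None of the FOXA genes was called. *Foxa3* (NCBI gene 15377), the most abundant of the 3 in these control livers, had 48.6, 54.8, 42.0 and 58.9 CPM in the flox/flox livers and 47.3, 35.6 and 50.9 CPM in the hep-/- livers. Its groups overlapped, and its log2 fold change of -0.20 (standard error 0.20, 95% interval -0.63 to 0.23) did not pass (edgeR adjusted p = 0.520).

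*Foxa2* (NCBI gene 15376), which acts in the fasting response and bile acid handling, had the largest fold change of the 9 without being called. Its values were 20.1, 17.8, 9.91 and 15.7 CPM in the flox/flox livers and 15.3, 27.7 and 55.1 CPM in the hep-/- livers. Replicate 1 of the hep-/- mice lay inside the control range, replicate 2 above it and replicate 3 far above. Its log2 fold change was 1.04 (standard error 0.37, edgeR adjusted p = 0.0723, exact permutation p = 0.114) and dropped to 0.43 without hep-/- replicate 3 (edgeR adjusted p = 0.370). It was called with DESeq2 (1.05, adjusted p = 0.0261), with the laxest count filter (1.03, edgeR adjusted p = 0.0141) and without hep-/- replicate 1 (1.36, edgeR adjusted p = 0.0266), with an adjusted p of 0.0141 to 0.370 over 18 alternatives.

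*Foxa1* (NCBI gene 15375) stood out in hep-/- replicate 3 as *Foxa2* did. It was at 14.65, 16.2, 12.6 and 13.05 CPM in the flox/flox livers and at 12.95, 14.7 and 36.5 CPM in the hep-/- livers, where replicates 1 and 2 fell within the control range. The log2 fold change of 0.60 (standard error 0.32, edgeR adjusted p = 0.214) became -0.04 without hep-/- replicate 3. Of the FOXA FPKM in a liver, *Foxa3* supplied 67.8%, 71.6%, 75.6% and 75.9% in flox/flox replicates 1 to 4 and 72.1%, 54.5% and 45.1% in hep-/- replicates 1 to 3. The *Foxa2* part was 24.1%, 19.97%, 15.4% and 17.4% in the controls and 20.1%, 36.5% and 42.05% in the hep-/- livers. For *Foxa3* the group means were 72.7% (SD 3.82, n = 4) and 57.2% (SD 13.7, n = 3), and the difference of -15.5 percentage points did not pass (two-sided exact permutation test, p = 0.0857, adjusted p = 0.129). It was -9.43 points without hep-/- replicate 3.

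*Onecut2* (NCBI gene 225631) was higher in each hep-/- liver than in any control, close to the threshold without passing. It had 56.7, 67.8, 55.3 and 59.2 CPM in the flox/flox livers and 80.5, 77.1 and 108 CPM in the hep-/- livers. The log2 fold change was 0.57 (standard error 0.19, 95% interval 0.16 to 0.98, edgeR adjusted p = 0.0592), and the exact permutation test gave p = 0.0286. It was called with upper-quartile normalization (0.59, edgeR adjusted p = 0.0387) and with the filter of 10 counts in every mouse (0.58, edgeR adjusted p = 0.0432), and stood at 0.39 without hep-/- replicate 3 (edgeR adjusted p = 0.176). Over 18 alternatives the adjusted p ranged from 0.0249 to 0.238.

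*Onecut1* (NCBI gene 15379) was the least expressed and the most variable of the factors. It had 115, 221, 61 and 38 counts in the flox/flox livers and 22, 26 and 174 counts in the hep-/- livers, which is 2.64, 5.55, 1.43 and 1.07 CPM against 0.714, 0.784 and 5.72 CPM. Replicates 1 and 2 of the hep-/- mice were the lowest of the 7 livers and replicate 3 the highest in CPM, while flox/flox replicate 2 was the highest in counts and in FPKM. The log2 fold change was -0.15 with a standard error of 0.74 (edgeR adjusted p = 0.906), and -1.84 without hep-/- replicate 3 (edgeR adjusted p = 0.0970). Within the livers, *Onecut2* FPKM exceeded *Onecut1* FPKM 2.81-fold, 1.6-fold, 5.08-fold and 7.23-fold in flox/flox replicates 1 to 4, and 14.8-fold, 12.9-fold and 2.48-fold in hep-/- replicates 1 to 3. Mean log2 ratios were 1.84 (SD 0.957, n = 4) and 2.96 (SD 1.43, n = 3), and the groups overlapped (exact permutation test, two-sided, p = 0.314). Without hep-/- replicate 3 the difference of 1.12 became 1.94.

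*Prox1* (NCBI gene 19130), a corepressor of bile acid synthesis in hepatocytes, varied little. It had 122, 111, 82.8 and 124 CPM in the flox/flox livers and 82.1, 100.1 and 95.3 CPM in the hep-/- livers, with overlap. The log2 fold change of -0.25 (standard error 0.20, 95% interval -0.69 to 0.18) did not pass (edgeR adjusted p = 0.407). Markers of lymphatic endothelium, the other *Prox1*-expressing cells of liver, were low, their summed level over 5 genes being 18.1 to 90.2 CPM in the controls and 27.0 to 39.4 CPM in the hep-/- livers.

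**Figure D3:**
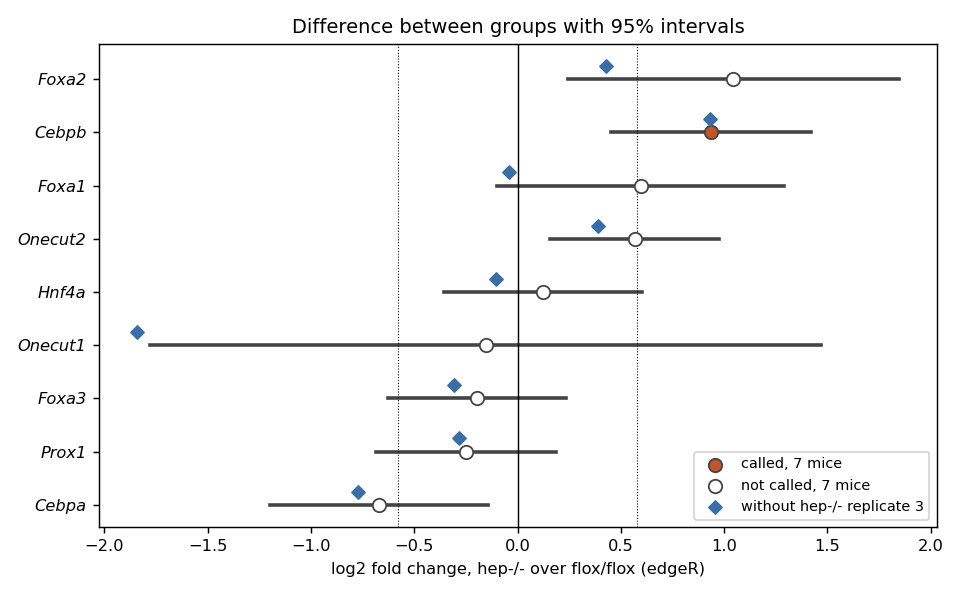
Log2 fold change of each factor, hep-/- over flox/flox, from edgeR (circles, with 95% intervals as lines, filled where called) and the same without hep-/- replicate 3 (diamonds). Dotted lines mark the call threshold of 0.58 in either direction. *Cebpb* is the filled circle at 0.94, and *Onecut1* (-0.15 to -1.84), *Foxa2* (1.04 to 0.43) and *Foxa1* (0.60 to -0.04) move most when that liver is left out.

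Set in order by FPKM, a level per length, the control livers had *Cebpa* first (134, SD 30.7, n = 4), then *Cebpb* (110.2, SD 17.0) and *Hnf4a* (97.7, SD 17.9), with overlap between *Cebpa* and *Cebpb* and between *Cebpb* and *Hnf4a*. *Hnf4a* lay apart from the next gene. *Foxa3* (25.9), *Prox1* (13.3) and *Foxa2* (6.98) followed, the first pair each apart from the next gene down. *Onecut2* (4.46), *Foxa1* (2.86) and *Onecut1* (1.53) came last, where *Foxa2* overlapped with *Onecut2* and *Foxa1* with *Onecut1*. In the hep-/- livers *Cebpb* was first (193, SD 26.6, n = 3), apart from *Hnf4a* (95.9, SD 16.6), which in turn lay apart from *Cebpa* (76.4, SD 7.77). *Foxa2* (12.99, SD 7.31) stood before *Prox1* (10.3, SD 2.05) there, with overlap. In hep-/- replicates 1 to 3 *Foxa2* was at 5.845, 12.67 and 20.45 FPKM and *Prox1* at 8.639, 12.61 and 9.75 FPKM. The order of this pair thus rested on replicate 3.

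Between mice of a group the coefficient of variation ran from 9.38% for *Onecut2* to 75.9% for *Onecut1* in the controls, against a median of 21.4% over all genes tested. In the hep-/- livers it reached 119% for *Onecut1*, against a median of 24.9%, with *Foxa1* at 61.3% and *Foxa2* at 62.2%. Over hep-/- replicates 1 and 2 alone it was 6.60% for *Onecut1*, 9.02% for *Foxa1* and 40.7% for *Foxa2*, against a median of 22.9%, so the high values of *Onecut1* and *Foxa1* rest on replicate 3. Hep-/- replicate 3, the liver with control-like *B4galt1*, was the highest of the 7 for 5 of the 9 factors in CPM and for 3 in FPKM, *Foxa1*, *Foxa2* and *Onecut2*. Gene length and base composition were set beside the members. *Cebpb* (1518 bases) is in the shortest quintile of tested genes, where the median log2 fold change was 0.03, and *Cebpa* (2636 bases) in the next quintile, at -0.04. By GC content, *Cebpb* (67.2%), *Cebpa* (62.6%) and *Foxa2* (57.0%) all fall in the richest quintile, whose median log2 fold change was 0.20.

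Genes whose profile over the 7 livers was most like that of a factor were looked up for *Foxa2* and *Cebpb*, the members with the largest log2 fold changes, among 12333 genes of at least 1 CPM on average. Likeness was the root mean square difference of log2 CPM after centring each gene. Nearest to *Cebpb* were *Pam16* (0.113), *Mrps21* (0.122) and *Smim11* (0.127), of which *Pam16* encodes a part of the mitochondrial import motor and *Mrps21* a mitochondrial ribosomal protein. Nearest to *Foxa2* were *Tmem88b* (0.195), *Pfkfb2* (0.212), an enzyme that sets the level of fructose 2,6-bisphosphate, and the glycolytic enzyme *Aldoa* (0.221). Among the factors themselves the closest pair was *Foxa3* and *Prox1* (0.226), and the farthest was *Cebpb* and *Onecut1* (1.45).

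Of 40 other liver-enriched transcription factors and cofactors, 39 were tested, 5 rose and 1 fell, which is 15.4% beside the 15.8% of all genes, with a median log2 fold change of 0.28. *Cux2*, a growth hormone-responsive repressor that is female-biased in liver, rose from a mean of 1.69 CPM (SD 0.612, n = 4) to a mean of 6.91 CPM (SD 4.34, n = 3), a log2 fold change of 2.03 (edgeR adjusted p = 0.0145). *Mlxipl*, which encodes the carbohydrate-sensing factor ChREBP, rose by 1.397 (edgeR adjusted p = 0.0287), *Gata6* by 1.003 (edgeR adjusted p = 0.0165), the xenobiotic receptor gene *Nr1i2* by 0.81 (edgeR adjusted p = 0.0132) and *Ddit3*, whose product CHOP pairs with C/EBP proteins, by 0.73 (edgeR adjusted p = 0.0238). *Rxra*, the partner of many nuclear receptors, fell by 1.15 on the log2 scale, from a mean of 326 CPM (SD 40.02, n = 4) to a mean of 147 CPM (SD 17.6, n = 3; edgeR adjusted p = 0.00605). When hep-/- replicate 3 was left out there were 4 higher and 2 lower, as *Mlxipl* lost its call (1.31, edgeR adjusted p = 0.0660) and *Xbp1*, a factor of the unfolded protein response, was called lower (-0.91, edgeR adjusted p = 0.0175). Other mice decided calls as well. Leaving out hep-/- replicate 2 ended those of *Mlxipl*, *Cux2* and *Ddit3*, leaving out flox/flox replicate 2 those of *Mlxipl*, *Nr1i2* and *Ddit3*, leaving out flox/flox replicate 4 those of *Mlxipl* and *Ddit3*, leaving out flox/flox replicate 3 that of *Ddit3*, and leaving out hep-/- replicate 1 that of *Gata6*. *Rxra* was called with each mouse left out. The most abundant of the others were not called, with log2 fold changes of -0.10 for *Creb3l3*, -0.18 for *Atf5* and -0.19 for *Ppara*. Close relatives of the members also did not pass, among them *Cebpd* (0.46, edgeR adjusted p = 0.183) and *Cebpg* (0.23). *Onecut3* was too low to test.

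Of 53 well-known targets of the 9 factors tested, 4 rose and 7 fell, or 20.8% beside the 15.8% of all genes, and the median log2 fold change was 0.02. When hep-/- replicate 3 was left out there were 3 higher and 14 lower with a median of -0.15, so that 17.6% of the calls were higher, where 45.5% of the calls among all genes were. On log2(FPKM + 0.1) there were 4 higher and 16 lower, or 20% higher, near the 23.6% of all genes on that scale. Of 23 HNF4A targets, 2 rose and 3 fell, or 21.7% beside the 15.8% of all genes. Without hep-/- replicate 3, 2 were higher and 5 lower, where 6.28% of all genes were higher and 7.51% lower. There *Cyp7a1* (-2.52, edgeR adjusted p = 0.0194) and *F7* (-0.84, edgeR adjusted p = 0.0320) joined the lower genes. *Apoc3*, which slows the clearance of triglyceride-rich lipoproteins, went from a mean of 1148 CPM (SD 402, n = 4) to a mean of 2595 CPM (SD 398, n = 3), a log2 fold change of 1.176 (edgeR adjusted p = 0.0183), and *Nr1i2* rose too. *Cyp8b1*, the sterol 12-hydroxylase of cholic acid synthesis, fell by 1.73 (edgeR adjusted p = 0.0145) and *Apom* by 1.28 (edgeR adjusted p = 0.0140). The most abundant did not pass, with log2 fold changes of 0.70 for *Apoa1*, 0.60 for *Apoa2*, 0.08 for *Apoa4* (-0.11 without hep-/- replicate 3) and -0.56 for *Apob*.

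Of 10 FOXA targets none was called by edgeR, which called 15.8% of all genes, while 4 had an unadjusted p under 0.05 and DESeq2 called 3, beside 21.5% of all genes. Among them the log2 fold changes were 0.29 for *Alb*, 0.18 for *Pck1* and 0.43 for *Ttr*. Without hep-/- replicate 3 edgeR called 2 of the 10 as lower, beside 7.51% of all genes, *Cps1* of the urea cycle (-1.44, edgeR adjusted p = 0.0106) and *Tdo2*, which opens the tryptophan ring (-2.09, edgeR adjusted p = 0.00752). Of 10 metabolic targets of the C/EBP proteins 1 was called (10% of them), *Gys2*, the liver glycogen synthase, which fell by 1.04 (edgeR adjusted p = 0.0184), and *Cps1* (-0.85, edgeR adjusted p = 0.110) was not. Without hep-/- replicate 3 there were 3, all lower, since *Cps1* and *Tdo2* are on this list too. DESeq2 (-0.84, adjusted p = 0.0375), voom (-0.86, adjusted p = 0.0384) and limma on log2(FPKM + 1) (-1.12, adjusted p = 0.0196) also called *Cps1* lower with all mice. Among 8 targets of ONECUT1 or PROX1, *Tat*, *Igfbp1* and *G6pc* had log2 fold changes of 0.25, 0.42 and 0.43 (-0.11, -0.31 and 0.31 without hep-/- replicate 3) and were not called. These lists share members.

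Acute-phase genes are the classic targets of C/EBPβ. Of 18 tested 1 rose, *Orm3* (1.498, edgeR adjusted p = 0.0257), and 3 fell, the opsonin *C3* (-0.80, edgeR adjusted p = 0.0478), *Crp* (-1.10, edgeR adjusted p = 0.0201) and *Saa1* (-1.10, edgeR adjusted p = 0.0311). The median log2 fold change of the list was -0.20, and 12 of the 18 had a negative sign. The rise of *Orm3* rested on hep-/- replicate 3, without which it was 0.78 (edgeR adjusted p = 0.109), and it also lost its call without flox/flox replicate 2. The 4 calls were 22.2% of the list, beside the 15.8% of all genes. With hep-/- replicate 3 left out 6 of the 18 were called, all lower, where 7.51% of all genes were lower, as the fibrinogen chains *Fga* (-1.89, edgeR adjusted p = 0.00675) and *Fgg* (-1.41, edgeR adjusted p = 0.0159) and *Steap4* (-1.62, edgeR adjusted p = 0.0187) joined *C3*, *Crp* and *Saa1*, and the median was -0.47. The call of *C3* was lost when any of the other 6 mice was left out, that of *Saa1* without hep-/- replicate 2 or flox/flox replicate 2, 3 or 4, and that of *Crp* without flox/flox replicate 2. The most abundant besides *C3* were *Hpx* (-0.06), *Hp* (0.47) and *Fgb* (-0.02, and -0.63 without hep-/- replicate 3), none of them called. Summed over the 18 genes, the level was 26630 to 34000 CPM in the controls and 22610 to 34140 CPM in the hep-/- livers. *Orm3* and *Saa1* belong to families of near copies, whose reads the counting may have split between them.

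**Figure D4:**
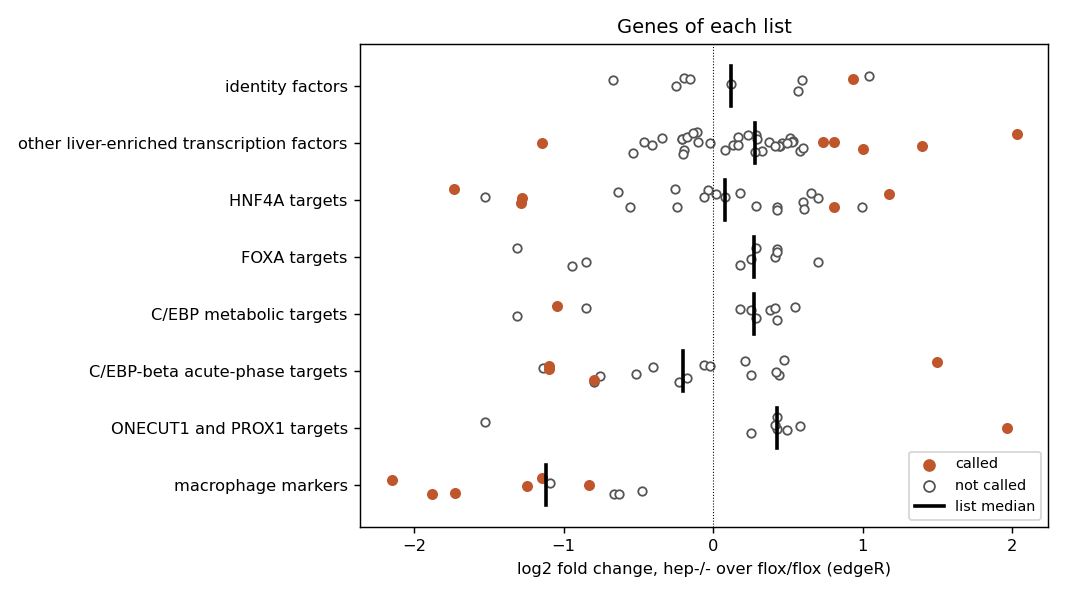
Log2 fold change (hep-/- over flox/flox, edgeR) of each tested gene of 8 lists, filled where called, with the list median as a bar and vertical scatter for display. Identity factors and their target lists spread to both sides of 0, with medians from -0.20 to 0.43, while all 10 macrophage markers lie below 0.

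Genes of fetal liver and progenitor cells, which hepatocytes that lose their identity can express again, gave no call with edgeR among 10 tested, with 2 at an unadjusted p under 0.05 and none called by DESeq2. Beside the 15.8% of all genes called by edgeR and 21.5% by DESeq2, a count of 0 among 10 says little about this list. The most abundant of them, *Spp1*, *Cd24a*, *Sox4* and *Sox9*, had log2 fold changes of 0.02, -1.03, 0.22 and 0.28, and of 0.34, -0.91, 0.53 and 0.31 without hep-/- replicate 3. Summed over 8 cholangiocyte markers, the other cells that express ONECUT factors, the level was 269 to 680 CPM in the controls and 278 to 926 CPM in the hep-/- livers, most of it *Spp1*. Without *Spp1* the other 7 summed to 29.6 to 67.3 CPM and 40.9 to 129.5 CPM. None of the 8 was called by edgeR or DESeq2 and none had an unadjusted p under 0.05, while 7 had a positive log2 fold change (median 0.42), and all 8 without hep-/- replicate 3 (median 0.73). Their part in the values of *Onecut2* was not tested. Transcripts antisense to or beside the members were scarce, with *Prox1os* at 7.67 CPM in the controls (SD 2.77, n = 4) and 10.3 CPM in the hep-/- livers (SD 3.73, n = 3), *9030622O22Rik* at 7.49 and 10.5 CPM, and *Hnf4aos* at 0.401 and 0.508 CPM, and none was called. Whether the counting used strand is not given in the sources used here, so reads of *Prox1* and *Prox1os*, or of *Hnf4a* and *Hnf4aos*, cannot be told apart where they overlap. What part macrophage content, mitochondrial share or library size has in these differences was not tested.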

How the data were processed

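Livers of 7 mice were profiled by RNA-seq, with 1 library per mouse from TRIzol-extracted RNA. The authors deposited counts per gene, whole numbers without normalization, and FPKM values made from these counts, a length fixed per gene and the library total. The submitters' processing notes name fastp, HISAT2, HTSeq, DESeq2, R 3.2.0 and build GRCm39, and the annotation is not given in the sources used here. Sequences and GC content came from RefSeq and GENCODE for GRCm38, so no coordinates were mixed with the counts.

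From the counts, 15179 genes passing filterByExpr (minimum count 10, minimum total 15) entered a quasi-likelihood fit in edgeR 4.0.16 (R 4.3.3) with TMM factors and group as sole term, and p-values were adjusted by Benjamini-Hochberg over these genes. Standard errors were derived from the F statistic. P-values measure the spread between mice as labelled. A library's 3 counts equal 0.0690 to 0.0987 CPM. Single values and within-liver FPKM ratios were compared by two-sided exact permutation tests, which cannot go below 0.0286. Alternatives were DESeq2 1.42.0, limma 3.58.1 on log2 FPKM, voom, other normalizations and filters, the replicate number as a block, and each mouse left out.

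The members and gene lists were chosen with earlier results of these data known. Beyond the members, the text names the called genes of each list, up to 6 in each direction, its 4 most abundant, and for the members with the 2 largest changes the 3 genes of nearest profile. Some genes this rule names are not reported here. *Cebpd*, *Cebpg*, *Onecut3*, *Serpina1a*, *Apoc2*, *Afp*, the genes called without hep-/- replicate 3 and the macrophage markers were added after their values were seen.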

Additional observations from a re-analysis of the deposited data

How the results depend on the processing

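*Cebpb* kept its sign in all 18 alternatives (0.77 to 1.13) and its call in 16. The number of the 9 factors called was 1 with the replicate block, 3 with DESeq2, 2 each with limma on log2(FPKM + 1) and log2(FPKM + 0.1), upper-quartile normalization, and filters of 1 count in any mouse or 10 in every mouse, and 0 to 1 with a mouse left out. *Hnf4a* turned to -0.022 on FPKM in each of 3 fits and ran from -0.103 (without hep-/- replicate 3) to 0.238 with a mouse left out, *Foxa1* from -0.04 (without hep-/- replicate 3) to 0.836, and *Onecut1* from -1.84 to 0.462, turning positive without hep-/- replicate 1 (0.251), hep-/- replicate 2 (0.266) or flox/flox replicate 2. Calls among all genes were 2404 (15.8%), 3271 with DESeq2 (21.5%), 2987 with voom (19.7%), 2821 with the filter of 1 count (12.3%), 2547 on log2(FPKM + 0.1) (23.3%) and 2294 on log2(FPKM + 1) (21.0%), but 1330 with limma on all genes above 0 FPKM, 1267 with the replicate block and 885 to 2396 with a mouse left out, namely 885 without flox/flox replicate 2, 1199 without hep-/- replicate 2, 1405 without flox/flox replicate 3 and 1552 without flox/flox replicate 4. On log2(FPKM + 1) 24.5% of calls were higher (23.6% with 0.1 added and 18.2% over all genes above 0) against 50.5% with TMM, and the median of all genes moved by -0.12. Of the other liver-enriched factors, 6 were called, but 3 with the replicate block, 1 on all genes above 0 FPKM and 3 to 6 with a mouse left out (3 without hep-/- replicate 2 or flox/flox replicate 2). The block ended the calls of *Gata6*, *Nr1i2*, *Ddit3*, *Gys2*, *Saa1* and *C3* and added *Apoc2* as higher and *Tdo2* and *Steap4* as lower. Those of *Apoc3* and *Gys2* were lost without flox/flox replicate 2, and that of *Apoc3* also without flox/flox replicate 3 or hep-/- replicate 1. Targets called were 11, but 19 with DESeq2 (8 higher and 11 lower), 19 and 20 on log2 FPKM with 1 and 0.1 added, 18 with voom (5 higher and 13 lower), 7 on all genes above 0 FPKM and 4 to 17 with a mouse left out (17 without hep-/- replicate 3, 4 without flox/flox replicate 2). Of the fetal and progenitor genes none was called, but 1 as lower in each of 5 settings, *Cd24a* with the filter of 1 count in any mouse, the replicate block or flox/flox replicate 4 left out, and *Afp* on log2 FPKM with either pseudocount. The *Cebpb* to *Cebpa* difference stayed between 1.44 and 1.80 with a mouse left out, where the test cannot pass 0.05, and was unchanged to 2 decimals on CPM. The *Foxa3* share differed by -22.9 to -9.43 points and the *Onecut2* to *Onecut1* ratio by 0.66 to 1.94 with a mouse left out. The causes of these changes were not tested. Equal replicate numbers did not mark pairs: deviations from the group means correlated at -0.458, -0.130 and 0.101 for numbers 1 to 3, and no hep-/- liver correlated best with its own number. Low counts limit *Onecut1*, at 22 to 221 counts a liver.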
